A study of Mus musculus with 3 samples.

Results

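The VEGF family genes examined here were the receptor genes Kdr, Flt1, Flt4, Nrp1 and Nrp2 and the ligand genes Vegfa, Vegfb, Vegfc and Pgf. These 9 genes were taken by name from the 18193 genes on the array, as the family of Flk1, the surface protein on which the cells were sorted. They were read by 22 of the 45037 probe sets, the groups of short probes that each report one transcript region. Kdr encodes Flk1 itself, so its level only checks the sort. The cells were the progeny of A2.snail, a mouse embryonic stem cell line that switches on Snail, a repressor of epithelial genes, when doxycycline is given. They grew as embryoid bodies, floating aggregates in which early germ layer cells form, at 50000 cells per mL with 10% fetal calf serum and DKK1, an inhibitor of Wnt signalling. All were collected on day 3. The 3 groups had 1 array each. Flk1+ and Flk1- cells that had received doxycycline at 250 ng/mL from day 2 are called Snail-induced Flk1+ and Snail-induced Flk1- here, and Flk1- cells that never received it are called untreated Flk1-.

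VEGF proteins are secreted growth factors that direct the formation of blood vessels. VEGF-A, the product of Vegfa, binds the receptor tyrosine kinases Flk1 and Flt1; VEGF-B and placental growth factor bind Flt1, and VEGF-C binds Flt4 and, once processed, Flk1. Neuropilins, encoded by Nrp1 and Nrp2, are co-receptors that VEGF proteins share with class 3 semaphorins. In the mouse embryo Flk1 marks the first mesoderm that can form endothelium and blood, Flt1 binds VEGF-A tightly but signals weakly and can hold it away from Flk1, and Flt4 later becomes typical of lymphatic vessels.

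A single array per group leaves no replicate spread, so nothing was tested and no p-value is printed; the small number of arrays limits how precise any value is. No Flk1+ cells without doxycycline and no doxycycline-treated cells without the Snail gene were used here. The effects of Snail and of doxycycline therefore cannot be told apart, and neither can the Flk1 gate and induction in a comparison of Flk1+ cells with untreated ones. In bulk RNA, fewer cells of a type and less RNA per cell cannot be told apart either. The median intensity over all probe sets was 44.6, 42.4 and 42.7 on the Snail-induced Flk1+, Snail-induced Flk1- and untreated Flk1- arrays. Values under 25.6, the 40th percentile of all intensities, are treated as too dim for an exact fold, and this level is called the floor. A log2 difference was taken after adding 9.53, the 20th percentile, to each intensity, which understates differences of dim genes. A fold is 2 to the power of that difference. If the dimmer array did not reach the floor, the fold is a lower bound, the brighter intensity over that of the floor. A gene was counted as higher or lower when its brightest probe set differed at least 2-fold on the log2 scale and at least 1 of the arrays compared reached the floor. That log2 difference used values under the floor as deposited, so a gene or probe set could be counted although its bound was under 2-fold. Of all genes, 13974 reached the floor on at least 1 array, and so did all 9 VEGF genes and 20 of their 22 probe sets.

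Snai1, the gene of Snail, had 1 probe set, which gave 19.8 in cells labelled Snail-induced Flk1+, 13.1 in cells labelled Snail-induced Flk1- and 29.1 in untreated Flk1- cells. Both Snail-induced values lay under the floor and the untreated one just above it, so their order is not read. No induction was seen by this probe set, and whether its probes can read the introduced gene is not known here. The Snail-induced groups are therefore named by their labels.

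The single Kdr probe set gave 404 in Snail-induced Flk1+ cells, against 9.73 in Snail-induced Flk1- and 10.5 in untreated Flk1- cells. Only the Flk1+ array stood above the floor, by at least 15.8-fold, so the transcript followed the label of the sort. Kdr is left out of the counts of receptors below.

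Among receptor genes other than Kdr, Flt1, Flt4 and Nrp1 were at least 2-fold higher in the Snail-induced Flk1+ array than in the Snail-induced Flk1- array, and Nrp2 was not by its brightest probe set. None of the 4 ligand genes was at least 2-fold apart in this comparison. Over the family without Kdr, 3 of 8 genes were higher and 0 lower, and the median log2 difference was 0.37. Over all measured genes 4.93% were higher and 4.84% lower, with a median of 0.00. Flt1 reached the floor on the Flk1+ array alone. By probe set, 12 of the 13 receptor probe sets that reached the floor (again without Kdr) were higher and 0 lower, where 4.74% of all such probe sets were higher and 4.22% lower. This count is a description only, since several probe sets read the same gene and 8 of the 12 reached the floor on the Flk1+ array alone. Among these 8, the Nrp2 probe set 1447343_at had a bound of only 1.35-fold. Of the 6 ligand probe sets, 0 were higher or lower.

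**Figure D1:**
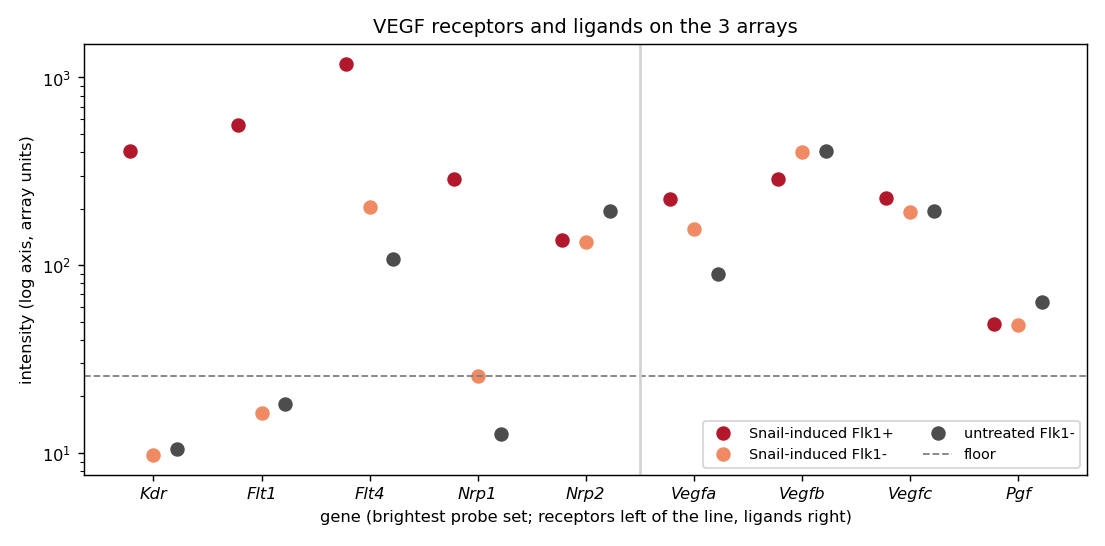
Intensity of the brightest probe set of each VEGF gene on the 3 arrays, on a log axis, with the floor as a dashed line; each point is 1 array. Flt1, Flt4 and Nrp1 lie highest in Snail-induced Flk1+ cells, Nrp2 lies at 136, 133 and 194, and the 4 ligand genes differ little between the arrays except Vegfa, at 225, 156 and 90.3.

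Flt1, which encodes the high-affinity VEGF-A receptor, gave 556 in Snail-induced Flk1+ cells by its brightest probe set (1451756_at), against 16.4 in Snail-induced Flk1- and 18.2 in untreated Flk1- cells. Both Flk1- arrays lay under the floor, so the Flk1+ array was at least 21.7-fold higher than either. Its log2 difference between the Snail-induced arrays was 4.45 with the values as deposited and 4.01 with those under the floor set to it. Of its other probe sets, 1440926_at gave 409.9 in Snail-induced Flk1+ cells against 3.55 in Snail-induced Flk1- and 2.94 in untreated Flk1- cells. Probe set 1419300_at gave 251 against 11.9 and 10.8 in the same order. These 3 probe sets show one pattern, a signal on the Flk1+ array and none above the floor on the others. The remaining one, 1454037_a_at, was flatter. It gave 98.6 in Snail-induced Flk1+ cells, 22.1 in Snail-induced Flk1- cells and 35.4 in untreated Flk1- cells, so it alone of the Flt1 probe sets stood above the floor in untreated cells. Its suffix marks probes shared by several transcripts of one gene, and which Flt1 transcripts it reads is not known here.

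Flt4, the gene of the VEGF-C receptor, was above the floor on every array, highest in Snail-induced Flk1+ and lowest in untreated Flk1- cells. Its brighter probe set (1444052_at) gave 1186 in Snail-induced Flk1+ cells, 204 in Snail-induced Flk1- cells and 108 in untreated Flk1- cells. The dimmer one (1421442_at) kept the same order, with 186, 43.96 and 26.1, the last just above the floor. By the brighter probe set Flt4 was 5.61-fold higher in Snail-induced Flk1+ than in Snail-induced Flk1- cells, rank 91 from the top among the 13974 measured genes, and 10.2-fold higher than in untreated Flk1- cells. Between the Flk1- arrays it was 1.82-fold higher in Snail-induced cells, a log2 difference of 0.86 that exceeded those of 95.9% of measured genes but stayed under the 2-fold rule. The dimmer probe set gave a log2 difference of 0.58 there and 3.65-fold between the Snail-induced arrays.

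Nrp1, the co-receptor gene that works with Flk1 in endothelium, gave 287 in Snail-induced Flk1+ cells by its brightest probe set (1448943_at), 25.7 in Snail-induced Flk1- cells, just at the floor, and 12.6 in untreated Flk1- cells. It was 8.43-fold higher in Snail-induced Flk1+ than in Snail-induced Flk1- cells. That log2 difference, 3.07, was 1.79 with the mean of all Nrp1 probe sets, most of which lay under the floor in Flk1- cells. Against untreated Flk1- cells it was at least 11.2-fold higher. Probe set 1448944_at gave 98.5, 20.6 and 11.9 in Snail-induced Flk1+, Snail-induced Flk1- and untreated Flk1- cells, and 1418084_at gave 94.2, 13.7 and 6.02. Both were above the floor on the Flk1+ array alone, at least 3.86-fold and at least 3.68-fold above the others. The 3 probe sets had the same order of arrays, although the values of the 2 Flk1- arrays lie at or under the floor, where their order is not reliable. The last Nrp1 probe set, 1457198_at, lay under the floor on all 3 arrays, between 5.46 and 7.23.

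The Nrp2 probe sets disagreed. The brightest by mean (1426528_at) gave 136 in Snail-induced Flk1+ cells, 133 in Snail-induced Flk1- cells and 194 in untreated Flk1- cells, so that the Snail-induced arrays were level, 1.02-fold apart, and both were lower than the untreated array by 1.40-fold and 1.43-fold. The second (1435349_at) gave 376 in Snail-induced Flk1+ cells, against 18.1 in Snail-induced Flk1- and 13.2 in untreated Flk1- cells, at least 14.7-fold higher on the Flk1+ array. Probe set 1456778_at gave 116 against 1.51 and 1, and 1447343_at gave 34.6 against 7.08 and 8.37, at least 4.56-fold and at least 1.35-fold higher. Thus 3 of the 4 Nrp2 probe sets had signal above the floor on the Flk1+ array only and 1 did not separate the arrays in that way. With the mean log2 value of all probe sets in place of the brightest, Nrp2 was higher in Snail-induced Flk1+ cells by 2.19 on the log2 scale against Snail-induced Flk1- and by 2.12 against untreated Flk1- cells; by the brightest, the difference from untreated Flk1- cells was -0.49. No direction is therefore given for Nrp2 as a gene.

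**Figure D2:**
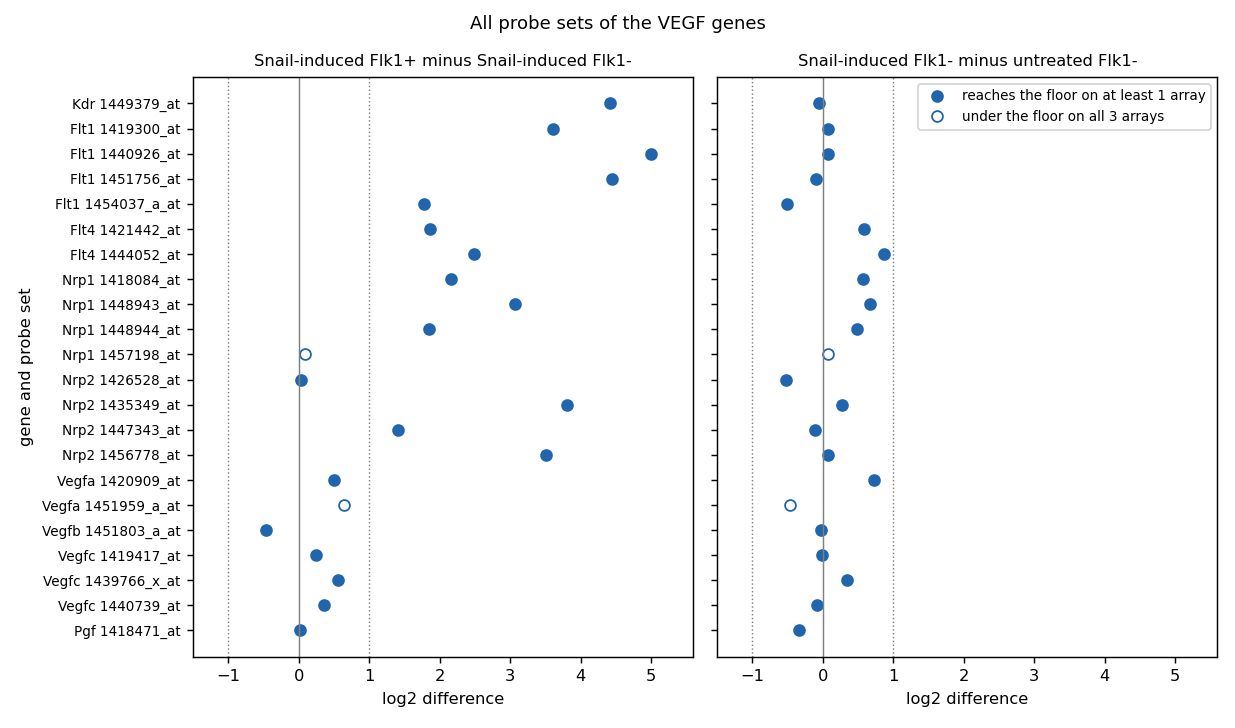
Log2 differences of all 22 VEGF probe sets, Snail-induced Flk1+ minus Snail-induced Flk1- on the left and Snail-induced Flk1- minus untreated Flk1- on the right; dotted lines mark 2-fold and open circles the 2 probe sets under the floor on every array. On the left, receptor probe sets spread up to 5.003 with Nrp2 1426528_at at 0.03, while on the right every probe set lies between -0.52 and 0.86.

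To set the sequence beside these values, the 250 bases before the RefSeq start site of each receptor gene and of Vegfa, the ligand gene with the largest differences, are shown 5′ to 3′ on the strand of the gene (build GRCm38.p6). Capitals mark every match, on either strand, to the letters of a Snail-type E-box, an ETS site, a hypoxia response element, a GC box, a TATA box or a SOX core, each spelled out with its count in the paragraph that follows. The windows are chr5:75978456-75978705 (minus strand) for Kdr, chr5:147726012-147726261 (minus) for Flt1, chr11:49609429-49609678 (plus) for Flt4, chr8:128358823-128359072 (plus) for Nrp1, chr1:62703067-62703316 (plus) for Nrp2 and chr17:46032378-46032627 (minus) for the upstream start site of Vegfa.
Kdr: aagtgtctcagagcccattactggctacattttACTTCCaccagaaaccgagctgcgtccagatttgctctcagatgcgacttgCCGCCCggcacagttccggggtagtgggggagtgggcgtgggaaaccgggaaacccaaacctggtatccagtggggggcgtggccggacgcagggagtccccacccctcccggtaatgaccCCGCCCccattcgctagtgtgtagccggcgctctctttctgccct
Flt1: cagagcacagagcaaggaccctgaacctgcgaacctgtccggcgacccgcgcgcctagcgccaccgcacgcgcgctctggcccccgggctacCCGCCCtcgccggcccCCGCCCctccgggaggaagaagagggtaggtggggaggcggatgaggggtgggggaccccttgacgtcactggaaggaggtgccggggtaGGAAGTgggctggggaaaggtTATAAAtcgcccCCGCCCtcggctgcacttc
Flt4: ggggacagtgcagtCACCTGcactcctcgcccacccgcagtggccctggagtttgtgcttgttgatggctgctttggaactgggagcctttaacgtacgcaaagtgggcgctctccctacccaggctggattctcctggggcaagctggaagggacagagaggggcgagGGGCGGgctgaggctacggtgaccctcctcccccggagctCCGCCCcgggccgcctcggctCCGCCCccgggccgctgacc
Nrp1: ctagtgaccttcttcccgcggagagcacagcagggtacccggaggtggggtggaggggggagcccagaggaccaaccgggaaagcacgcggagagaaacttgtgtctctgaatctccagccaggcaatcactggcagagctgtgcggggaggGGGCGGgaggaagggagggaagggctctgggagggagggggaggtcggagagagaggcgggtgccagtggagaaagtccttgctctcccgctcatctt
Nrp2: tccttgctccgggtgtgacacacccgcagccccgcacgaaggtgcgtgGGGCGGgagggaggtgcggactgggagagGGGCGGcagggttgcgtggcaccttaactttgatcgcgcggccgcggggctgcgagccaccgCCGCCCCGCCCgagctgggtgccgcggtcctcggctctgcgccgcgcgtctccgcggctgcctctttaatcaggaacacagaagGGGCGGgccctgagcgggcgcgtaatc
Vegfa: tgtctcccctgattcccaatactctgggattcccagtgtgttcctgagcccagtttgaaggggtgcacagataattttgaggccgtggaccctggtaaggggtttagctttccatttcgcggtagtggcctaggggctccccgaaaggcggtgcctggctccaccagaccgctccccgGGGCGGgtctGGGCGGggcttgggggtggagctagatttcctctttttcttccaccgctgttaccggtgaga

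The ETS letters (GGAAGT) occurred once in the Kdr window, from base -217 to -212 counted from the start site, and once in the Flt1 window, from -52 to -47, and in none of the Flt4, Nrp1, Nrp2 and Vegfa windows. Over 32851 mouse start sites 19.7% of windows held them. The Flt1 window alone held a TATA box (TATAAA), from -31 to -26, a match found in 12.4% of all windows. Of the 6 windows shown, the E-box letters (CAGGTG) occurred once, in Flt4 from -236 to -231, against 17.2% of all windows. At least 1 GC box (GGGCGG) lay in each of the 6 windows, from 1 in Nrp1 to 5 in Nrp2, where 2 matches overlap by a base, against 32.7% of all windows. These windows were also rich in G and C, from 59.2% in Vegfa to 72.4% in Nrp2, against a median of 52.4% over all windows. Of the hypoxia response element only the form ACGTG was searched, not GCGTG. Its letters, held by 16.6% of all windows, were in none of the 6 shown. Neither were those of the SOX core (ATTGT), which 27.7% of all windows held. The window of the downstream Vegfa start site, not shown, lies inside the gene, past the upstream start site. Its letters may therefore be exon or intron sequence and are not read as those of a promoter. It held E-box letters from -186 to -181 and from -178 to -173 and hypoxia response letters from -211 to -207. A match describes letters only, and binding was not measured.

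Ligand genes were above the floor on all 3 arrays by their brightest probe sets and showed smaller differences. Vegfa gave 225 in Snail-induced Flk1+ cells, 156 in Snail-induced Flk1- cells and 90.3 in untreated Flk1- cells by its probe set above the floor (1420909_at). It was 1.41-fold higher in Snail-induced Flk1+ than in Snail-induced Flk1- cells, and 1.66-fold higher in Snail-induced Flk1- than in untreated Flk1- cells. Only both steps together, 2.35-fold between Snail-induced Flk1+ and untreated Flk1- cells, passed the 2-fold rule. The log2 difference, 1.23, came under that rule at 0.97 with an offset of 50 in place of 9.53, and at 0.70 with the mean of both probe sets. The other Vegfa probe set, 1451959_a_at, lay under the floor throughout, at 12.7, 4.78 and 10.2.

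Vegfb, the gene of a Flt1 ligand, gave 288 in Snail-induced Flk1+ cells, against 400.1 in Snail-induced Flk1- and 407 in untreated Flk1- cells. It was the one ligand gene lower on the Flk1+ array than on both Flk1- arrays, by 1.38-fold and 1.40-fold, under the 2-fold rule. Vegfc, the gene of the Flt4 ligand, gave 229 in Snail-induced Flk1+, 192 in Snail-induced Flk1- and 194 in untreated Flk1- cells by its brightest probe set (1419417_at). Its probe set 1440739_at gave 208, 161 and 172, and 1439766_x_at, whose suffix marks probes that may also match other genes, gave 177, 117 and 89.8, so all 3 were highest on the Flk1+ array, by 1.17-fold to 1.87-fold against untreated cells. Pgf, which encodes placental growth factor, gave 48.7, 48.02 and 63.5 in Snail-induced Flk1+, Snail-induced Flk1- and untreated Flk1- cells, 1.01-fold apart between the Snail-induced arrays.

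Within Flk1- cells, no VEGF gene was counted as 2-fold apart with Snail induction. Of the 8 genes other than Kdr, 0 were higher and 0 lower in Snail-induced than in untreated Flk1- cells, where 2.92% of measured genes were higher and 2.00% lower. By probe set, 0 of the 11 that reached the floor on a Flk1- array were higher or lower, and the others could not be counted. Over all probe sets that reached the floor on any array, 2.71% were higher and 1.76% lower. The genes' log2 differences ran from -0.52 for Nrp2 to 0.86 for Flt4, with a median of -0.02 against 0.04 over all measured genes. Flt4 and Vegfa stood out by rank, above 95.9% and 94.1% of measured genes. For Vegfa that log2 difference, 0.73 by its brightest probe set, was 0.13 with the mean of its probe sets, 1 of them under the floor. Flt1 and Kdr were under the floor on both arrays and give no fold. Nrp1, at 25.7 in Snail-induced and 12.6 in untreated Flk1- cells, gives only a bound of at least 1.01-fold, so a larger difference of these 3 genes is not known here.

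Between Snail-induced Flk1+ and untreated Flk1- cells, 4 of 8 genes were higher (Flt1, Flt4, Nrp1 and Vegfa) and 0 lower, and the median log2 difference was 0.73. Over all measured genes 8.21% were higher and 6.42% lower, with a median of 0.01. By probe set, 12 of 13 for the receptor genes without Kdr and 1 of 6 for the ligand genes were higher and 0 lower, against 8.18% higher and 5.62% lower over all; 8 of these 12 reached the floor on the Flk1+ array alone. This comparison shares both its arrays with the other 2 and is their sum on the log scale, so it adds no evidence of its own.

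**Figure D3:**
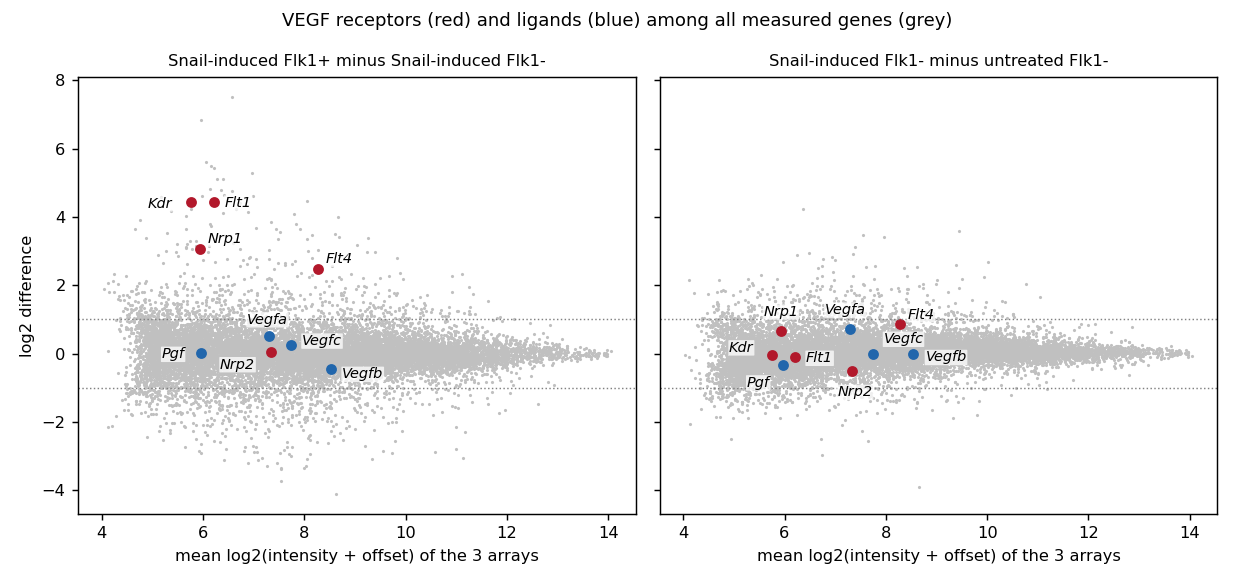
Log2 difference against mean log2(intensity + offset) over the 3 arrays for all 13974 measured genes (grey), with VEGF receptor genes in red and ligand genes in blue; dotted lines mark 2-fold. On the left (Snail-induced Flk1+ minus Snail-induced Flk1-) Flt4 lies at 2.49 and Kdr, Flt1 and Nrp1 lie above it, at positions that rest on Flk1- values under or just at the floor; on the right (Snail-induced Flk1- minus untreated Flk1-) all 9 genes are plotted within 2-fold.

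Genes with the pattern nearest to a VEGF gene were found by the distance between log2 values centred over the 3 arrays. Nearest to Flt1 were Lmo2, a cofactor gene of blood and vessel formation, with 1955 in Snail-induced Flk1+, 78.8 in Snail-induced Flk1- and 98.5 in untreated Flk1- cells (distance 0.15), Dusp2, a phosphatase gene (0.21), and Rasgrp3, a Ras activator gene (0.26). Nearest to Vegfa were Tmem44, Zfp672 and P4ha1, a collagen prolyl hydroxylase gene, each at a distance of 0.02; P4ha1 gave 759, 536 and 314 on the same arrays. Over 3 points many genes share a pattern, and the distance is a description only. For Flt1 it rests in part on its values under the floor, so the order of its nearest genes is uncertain.

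Most markers of endothelial cells and their precursors were, like Flt1, Flt4 and Nrp1, higher on the Snail-induced Flk1+ array. Of 27 measured genes of that list, 24 were higher and 0 lower in Snail-induced Flk1+ than in Snail-induced Flk1- cells, and the list's median was 3.34 on the log2 scale, where 4.93% of all measured genes were higher and 4.84% lower. Their summed intensity was 25923 in Snail-induced Flk1+, 3245 in Snail-induced Flk1- and 2603 in untreated Flk1- cells, and 0, 9 and 12 of them lay under the floor. Those under it on both Flk1- arrays were measured only through the Flk1+ array and could not have been counted as lower. The count is therefore a description only. No marker was listed at an intensity of 0; Erg, an endothelial transcription factor gene, was at 317, 4.17 and 1. Sox18 was at 1082, 30.2 and 3.33, and Rhoj, a small GTPase gene of endothelium, at 1204, 35.1 and 6.54. Cldn5, Robo4 and Mmrn2 were not counted as higher. Mmrn2 went the other way, at 132, 147 and 257. How far the receptor differences follow the share of such cells was not tested.

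Markers of other cell types did not all go one way. Between the Snail-induced arrays 4.93% of all measured genes were higher and 4.84% lower. Pluripotent and epiblast genes were lower in 10 of 17 and higher in 0 between these arrays. Their summed intensities were 19478, 37532 and 38080 in Snail-induced Flk1+, Snail-induced Flk1- and untreated Flk1- cells. The 16 epithelial genes summed to 2321, 7373 and 18611, and 5, 0 and 0 of them were under the floor; 13 were lower in Snail-induced than in untreated Flk1- cells, where 2.00% of all genes were. The 18 mesenchymal and nascent mesoderm genes were higher in 4 and lower in 0 between the Snail-induced arrays (median 0.49). In Snail-induced against untreated Flk1- cells, 9 of them were higher and 0 lower (median 1.02), where 2.92% of all genes were higher. They summed to 21170, 10290 and 6049. Most of the first sum came from Vim, at 9821, and Fn1, at 6394. Not every gene had the order of the sums, and Cdh11 and Pdgfra were highest in Snail-induced Flk1- cells. Of 9 blood genes 2 were higher and 1 lower between the Snail-induced arrays, with a median of 0.51 and sums of 920.1, 1099 and 1765. Myb, singled out after its values were seen, carried most of the sums in both Flk1- groups; without it they were 670.2, 397 and 586. The 9 primitive and visceral endoderm genes summed to 2674, 1729 and 1214, and to 1207, 1633 and 1146 without Sox17, which the endothelial markers also hold. The 7 neural genes summed to 1639, 2609 and 1869. The part of any of these cells in the VEGF values was not tested.

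The other genes of the pathway came from lists of textbook knowledge, and their counts between the Snail-induced arrays stand against 4.93% of all measured genes higher and 4.84% lower, with a median of 0.00. Among 16 measured partners and phosphatases of the VEGF receptors, 5 were higher and 1 lower in Snail-induced Flk1+ than in Snail-induced Flk1- cells (median 0.66). Cdh5, which encodes the endothelial cadherin that associates with Flk1, gave 187, against 13.5 in Snail-induced Flk1- and 19.6 in untreated Flk1- cells, at least 7.30-fold higher. Rasip1, needed for vessel lumens, was 5.75-fold higher and the integrin gene Itgav, with 3516, 1437 and 903, was 2.44-fold higher. The list shares Cdh5, Emcn, Mmrn2 and Rasip1 with the endothelial markers. Ptprj, a phosphatase gene that acts on the VEGF receptors, went the other way, at 24.9 in Snail-induced Flk1+ cells against 98.2 in Snail-induced Flk1- and 133 in untreated Flk1- cells, at least 3.84-fold lower.

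Of 37 measured signal transduction genes, 5 were higher and 1 lower between the Snail-induced arrays (median 0.26). Nfatc1, a calcium-regulated transcription factor gene, gave 1495 in Snail-induced Flk1+ cells, 306 in Snail-induced Flk1- cells and 137 in untreated Flk1- cells, 4.77-fold higher in Snail-induced Flk1+ than in Snail-induced Flk1- cells and 2.15-fold higher in Snail-induced than in untreated Flk1- cells. Vav3, a guanine nucleotide exchange factor gene, was 6.85-fold higher on the Flk1+ array, with 462 against 59.3 and 61.1. The Src family kinase genes Fyn and Yes1 were 2.57-fold and 2.52-fold higher there. Plcg2, the phospholipase C gamma gene better known from blood cells, stepped down, with 159 in Snail-induced Flk1+ cells, 411 in Snail-induced Flk1- cells and 1017 in untreated Flk1- cells. Plcg1, the form that docks on Flk1, was chosen after its values were seen; it gave 1568, 1138 and 869.

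Genes that endothelial cells are known to switch on after VEGF did not go one way. Of 26 measured, 6 were higher and 5 lower in Snail-induced Flk1+ than in Snail-induced Flk1- cells (median 0.26). The higher ones included Sox18, Sox17 and Plvap, which the endothelial markers also hold, and Ets1, which gave 3106, 758 and 117 in Snail-induced Flk1+, Snail-induced Flk1- and untreated Flk1- cells. Lower ones were the immediate early genes Egr1, with 1164, 3397 and 1757, and Egr3, with 14.7, 48.2 and 18.3, the tissue factor gene F3, with 17.03, 91.9 and 107, and Klf2 and Igfbp3. Ets1 was also 6.04-fold higher in Snail-induced than in untreated Flk1- cells.

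Among 17 genes that regulate VEGF genes, 2 were higher and 0 lower between the Snail-induced arrays, Egln3, an oxygen-sensing hydroxylase gene, at 2.75-fold and Stat3 at 2.49-fold. Epas1, which encodes an oxygen-regulated transcription factor of endothelium, gave 1788 in Snail-induced Flk1+ cells, 915 in Snail-induced Flk1- cells and 519 in untreated Flk1- cells. Vegfa had this order, and so did others of the list, Stat3, Sp1, Zfp36 and Zfp36l1 among them. Hif1a, at 5576, 4201 and 4305 on the same arrays, did not. A link of any of these genes to Vegfa was not tested. The 24 measured genes listed as hypoxia targets held neither Vegfa nor Egln3. Of these 24, 0 were higher and 4 lower between the Snail-induced arrays (median -0.17). In Snail-induced Flk1+, Snail-induced Flk1- and untreated Flk1- cells the glucose transporter gene Slc2a1 gave 2250, 4993 and 6898 and Aldoc 263, 756 and 949. Against untreated Flk1- cells, 2 of the 24 were higher in Snail-induced Flk1+ cells, the prolyl hydroxylase genes P4ha1 and P4ha2, and 6 were lower. Over all genes 8.21% were higher and 6.42% lower, so a count of 2 is near that background.

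Neuropilins also bind some semaphorins, and plexins carry semaphorin signals with or without a neuropilin. Of 8 measured semaphorin and plexin genes, Plxnd1, a plexin gene of endothelium, was higher in Snail-induced Flk1+ cells, with 571 against 163 in Snail-induced Flk1- and 205 in untreated Flk1- cells, and none was lower. The semaphorin genes Sema3c and Sema3e were lower in Snail-induced than in untreated Flk1- cells by 2.44-fold and 2.27-fold, with 61.2 against 163 and 184 against 431. Sema3c stood at 42.5 and Sema3e at 152 in Snail-induced Flk1+ cells. Vegfd, a further ligand gene of Flt4, gave 91.7, 91.8 and 71.9 in Snail-induced Flk1+, Snail-induced Flk1- and untreated Flk1- cells. Adamts3, whose protease processes VEGF-C, gave 132, 112 and 52.6, and Ccbe1, which assists it, 38.1, 26.9 and 32.9.

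**Figure D4:**
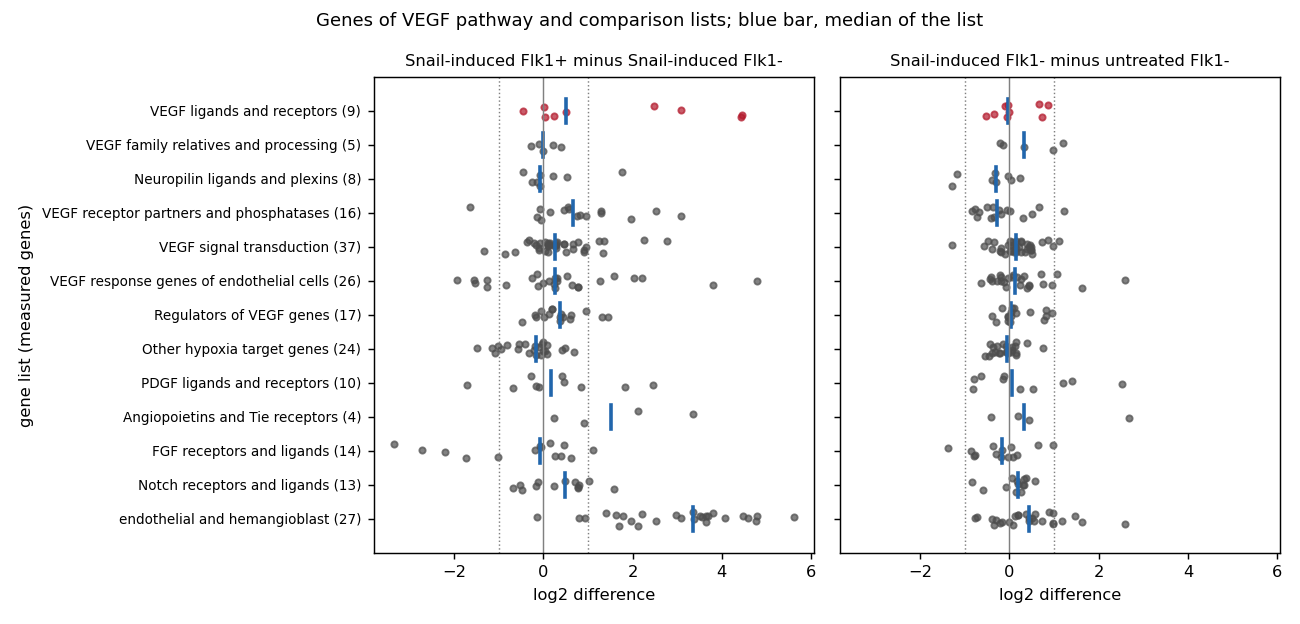
Log2 differences of the measured genes of the VEGF pathway lists, of lists of other growth factor families and of endothelial markers, 1 point per gene with vertical jitter and a blue bar at the list median; dotted lines mark 2-fold. On the left (Snail-induced Flk1+ minus Snail-induced Flk1-) the endothelial markers lie highest, with a median of 3.34. Of the VEGF genes, each by its brightest probe set, Kdr, Flt1, Flt4 and Nrp1 lie past 2-fold there. Nrp2 lies among the ligand genes by that probe set, while its other probe sets were higher on the Flk1+ array. On the right (Snail-induced Flk1- minus untreated Flk1-) the medians lie between -0.31 and 0.44.

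Other receptor families gave different pictures, set here beside the VEGF genes without a test of the difference. Of 4 measured angiopoietin and Tie genes, Tek and Tie1, receptor genes of endothelium, were higher on the Snail-induced Flk1+ array than on the Snail-induced Flk1- array. Tek gave 919.96, against 82.03 in Snail-induced Flk1- and 58.1 in untreated Flk1- cells, a 10.2-fold difference. Tie1 gave 42.8 against 2.52 and 1, a bound of at least 1.67-fold. The ligand gene Angpt1 gave 168, 84.6 and 5.17, at least 3.31-fold higher in Snail-induced than in untreated Flk1- cells. In the PDGF and Kit family, Kit and its ligand gene Kitl were 5.52-fold and 3.55-fold higher in Snail-induced Flk1+ than in Snail-induced Flk1- cells and Pdgfa 3.29-fold lower, while Pdgfra and Pdgfrb were 5.72-fold and 2.64-fold higher in Snail-induced than in untreated Flk1- cells. Between the Snail-induced arrays, where 4.93% of genes were higher and 4.84% lower, 1 of 14 measured FGF genes was higher and 5 were lower, the lower ones led by Fgf4 and Fgf5, and of 13 Notch pathway genes 2 were higher, Notch1 at 2.998-fold and its target Hey1 at 2.05-fold, and 0 lower.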

How the data were processed

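Expression was measured on 3 Affymetrix arrays, 1 per group, from 2 ug of total RNA each, per the labels' protocols. The authors deposited 1 linear intensity per probe set and array, between 0.5 and 18191; how probes were summarised and scaled, and with what software, is unknown here. Symbols came from the platform annotation and were brought up to date through Entrez IDs (RefSeq, GRCm38.p6): 34945 probe sets had 1 symbol and were used, 932 had several and 9160 none, and 204 of those used found no match and kept their symbol. Columns were compared as deposited, as log2(intensity + 9.53), with pandas 2.3.3 and numpy 2.4.6. A gene took the value of its brightest probe set, by the mean over 3 arrays. All VEGF genes are named with every probe set. From each list, the rule took up to 4 genes with the largest difference and up to 2 going the other way, and for Flt1 and Vegfa the 3 nearest patterns; the text names part of them. The VEGF genes and lists were chosen with earlier results of these data known. Promoters are RefSeq's, matched by symbol for all 9 genes. The counting was tested on simulated data in which only genes bright on every array were changed. How it recovers changes that rest on values near or under the floor, as for Flt1 and Nrp1, was not tested.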

Additional observations from a re-analysis of the deposited data

How the results depend on the processing

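The counts of VEGF genes at least 2-fold higher or lower in each comparison, with and without Kdr, were recomputed under quantile normalization, median centring, the mean or median of all probe sets, no suffixed probe sets, the floor dropped or raised to the 60th percentile, values under the floor set to it, offsets of 1 and 50, and a 3-fold threshold. The median of probe sets and values set to the floor were chosen after seeing the data. All of these counts stayed within 1.5 times; without Kdr they were 3 to 4 higher between the Snail-induced arrays and 3 to 4 higher against untreated Flk1- cells, with 0 lower. Of 264 recomputed log2 differences of single VEGF genes, 257 kept their side of the 2-fold rule and 7 did not. Pgf is missing from these with the floor raised to the 60th percentile, which it did not reach on any array. Vegfb is missing without suffixed probe sets, since its only probe set has a suffix. Nrp2 went to 2.19 and 2.12 (Snail-induced Flk1+ minus Snail-induced Flk1- and minus untreated Flk1-) with the mean of its probe sets and to 2.66 and 2.74 with their median. Vegfa, Snail-induced Flk1+ minus untreated Flk1-, fell under 2-fold with the mean or median of its probe sets (0.70), 1 of them under the floor, and with an offset of 50 (0.97). Counts of all genes past the threshold were 687 for Snail induction within Flk1- cells, 1365 for the Flk1 gate within induced cells and 2044 for both together; they were 244, 713 and 1282 with an offset of 50 and 148, 483 and 928 at 3-fold. In the first of these they were 431 with the mean of probe sets and 455 with the higher floor, and centring put 43.9% of calls higher against 59.4%. The causes were not tested beyond what each setting changes by construction. No paired analysis was possible because each group has 1 array. Dim signal limits Kdr and Flt1 in both Flk1- groups and Nrp1 in untreated Flk1- cells, where folds are bounds. Nrp1 lay just at the floor in Snail-induced Flk1- cells, and its log2 difference there, 3.07, was 1.79 with the mean of its probe sets.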
